A study of Mus musculus with 121 samples.

Results

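Transcripts of 7 proteins that the liver secretes into blood were followed in mouse liver: the hormones Fgf21 and Gdf15, the lipase inhibitor Angptl4, the insulin-like growth factor binding proteins Igfbp1 and Igfbp2, and the fetuins Ahsg and Fetub. They were chosen by name, as genes of liver-derived metabolic hormones and binding proteins, and each was found by its Ensembl identifier among the 25759 genes of the liver count table. Bulk liver RNA of C57BL/6 mice was sequenced, with 1 library per mouse. Mice were knockout (KO), heterozygous (HET) or wild type (WT) for a gene that the labels write as PEP, taken here as Pepd (prolidase) from knowledge of the study. From 8 weeks of age they received HFD (labelled 45 percent), standard chow, an Alios diet or its Control diet for 18 weeks. The HFD groups held 9 KO, 11 HET and 8 WT mice and the chow groups 5 KO, 8 HET and 5 WT. On Alios there were 8 KO, 5 HET and 6 WT mice, and on Control 1 KO, 4 HET and 5 WT. The sources used here do not give how the allele was made or in which cells it acts.

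The liver releases these proteins into blood, and some of them, such as Fgf21 and Gdf15, carry messages about nutrient and stress state. Fgf21 is released during fasting, amino acid shortage and carbohydrate excess and acts on cells that carry Klb (beta-klotho) beside an FGF receptor. Gdf15 is a stress-induced cytokine that lowers food intake through its receptor Gfral in the hindbrain. Angptl4 inhibits lipoprotein lipase and is a classical target of the fatty acid receptor PPAR alpha. Igfbp1 and Igfbp2 bind insulin-like growth factors, and insulin represses Igfbp1 through FOXO1. Ahsg (fetuin-A) is an abundant plasma glycoprotein that binds calcium mineral and can inhibit the insulin receptor, and Fetub (fetuin-B) is its relative and an inhibitor of the egg protease ovastacin.

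The genes lie on 6 chromosomes of GRCm38. Fgf21 (ENSMUSG00000030827) spans chr7:45613886-45615490 on the minus strand and Gdf15 (ENSMUSG00000038508) chr8:70629393-70632456 on the minus strand. Angptl4 (ENSMUSG00000002289) spans chr17:33773750-33781830 on the minus strand, Igfbp1 (ENSMUSG00000020429) chr11:7197782-7202546 on the plus strand and Igfbp2 (ENSMUSG00000039323) chr1:72824503-72852474 on the plus strand. Ahsg (ENSMUSG00000022868, chr16:22891277-22899449) and Fetub (ENSMUSG00000022871, chr16:22918334-22939778) are neighbours on the plus strand of chromosome 16, separated by 18884 bases. Ahsg overlaps the antisense gene Gm30505, and the strand setting of the counting is not given in the sources used here, so reads of this pair could not be told apart.

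Promoter windows from RefSeq (GRCm38.p6, 250 bases before to 50 after an annotated start) were available for 6 of the 7 genes, all except Angptl4. Those of the diet-responsive Fgf21, of Gdf15, whose level went with that of Fgf21 from mouse to mouse, and of the neighbouring fetuins are printed 5′ to 3′ on the strand of the gene. Capitals mark matches to 5 motifs searched on both strands: the amino acid response element TGATGCAA, the E-box CACGTG, the insulin response element CAAAACA, the nuclear receptor half-site AGGTCA and the TATA box TATAAA. No capital matches overlap. The windows are chr7:45615441-45615740 for Fgf21, chr8:70632407-70632706 for the first listed of 2 Gdf15 starts, chr16:22891765-22892064 for Ahsg and chr16:22918132-22918431 for the first listed of 2 Fetub starts.
Fgf21: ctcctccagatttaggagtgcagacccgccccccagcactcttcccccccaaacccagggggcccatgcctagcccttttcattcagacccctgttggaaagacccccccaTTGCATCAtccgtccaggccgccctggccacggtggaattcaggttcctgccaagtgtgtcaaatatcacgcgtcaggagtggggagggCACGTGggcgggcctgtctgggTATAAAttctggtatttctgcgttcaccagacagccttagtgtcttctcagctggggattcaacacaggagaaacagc
Gdf15: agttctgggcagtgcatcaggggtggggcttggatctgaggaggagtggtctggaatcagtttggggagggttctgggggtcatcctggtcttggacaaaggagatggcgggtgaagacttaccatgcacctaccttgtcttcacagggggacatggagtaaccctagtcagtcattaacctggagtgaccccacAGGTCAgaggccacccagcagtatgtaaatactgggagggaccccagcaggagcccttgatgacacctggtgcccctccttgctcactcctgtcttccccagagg
Ahsg: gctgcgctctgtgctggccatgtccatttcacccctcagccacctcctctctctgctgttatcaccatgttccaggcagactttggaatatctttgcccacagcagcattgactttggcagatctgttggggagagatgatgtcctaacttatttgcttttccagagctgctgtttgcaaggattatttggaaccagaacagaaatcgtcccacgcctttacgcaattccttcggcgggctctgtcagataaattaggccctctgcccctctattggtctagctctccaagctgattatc
Fetub: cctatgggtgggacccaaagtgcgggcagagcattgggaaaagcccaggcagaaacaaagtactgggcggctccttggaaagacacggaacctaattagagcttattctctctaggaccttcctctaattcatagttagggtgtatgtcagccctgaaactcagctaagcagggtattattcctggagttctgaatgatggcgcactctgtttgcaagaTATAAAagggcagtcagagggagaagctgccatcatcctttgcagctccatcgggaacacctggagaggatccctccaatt
The Fgf21 window held the amino acid response element in reverse orientation (TTGCATCA) at -139, an E-box at -50 and a TATA box at -28. Gdf15 held AGGTCA at -55, and its second listed start an E-box at -83. Fetub held a TATA box at -31, and the Ahsg window matched none of the 5 motifs. Of the windows not printed, that of Igfbp1 held CAAAACA at -108 and that of Igfbp2 an E-box at -142. Among 32851 promoter windows of the same length, 0.895% held TGATGCAA, 6.28% CAAAACA, 7.15% CACGTG, 13.6% TATAAA and 16.3% AGGTCA. A match describes letters only.

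Total counts per liver library ran from 42692 to 8854246 with a median of 3191160. The lowest belonged to Alios KO mouse 8, and the next lowest total was 1027087. Pepd averaged 1.65 ± 1.11 CPM in chow KO livers (n = 5), 22.1 ± 2.15 CPM in chow HET livers (n = 8) and 44.0 ± 3.69 CPM in chow WT livers (SD, n = 5), where CPM is counts per 1000000 after TMM scaling. HFD HET mouse 8 had Pepd at 1.26 CPM, inside the range of the HFD KO livers, and is called the mouse labelled HET. Summed acute-phase genes reached 139000, 103000 and 116000 CPM in chow KO mice 2, 3 and 5 and 122000 CPM in HFD KO mouse 2, and lay at or under 60400 CPM in all WT and HET livers on these 2 diets. Hepatocyte markers were present in every group, with summed levels of 8 genes from 51400 to 148000 CPM. Chow KO livers were lowest, with a median of 79000 CPM (51400 to 123000), against medians of 103000 to 121000 CPM in the other groups. Alb, Apoa1 and Ttr of this sum are also on a list of 7 genes lowered in the acute phase. That list had summed medians of 58200, 97600 and 97200 CPM in chow KO, HET and WT livers. Of the 8 hepatocyte markers, 0 were called in KO against WT on chow, and against HET Fgb was higher and Alb lower (edgeR). The part of the acute-phase state in the hepatocyte sum was not tested. In bulk tissue, fewer cells of a type and less RNA per cell cannot be told apart.

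All 7 genes passed the low-count filter in both edgeR fits. Median Fgf21 counts in KO, HET and WT livers were 6, 2 and 3 on chow and 18, 35 and 37 on HFD. In the chow and HFD fit Fgf21 thus passed mainly through its HFD livers, where its level was also higher. Per kilobase of exon the median level over 75 livers was 2890 CPM for Ahsg, 176 for Fetub, 76.6 for Igfbp2, 26.3 for Angptl4, 12.2 for Igfbp1, 4.67 for Fgf21 and 2.68 for Gdf15. The level varied least between mice of a group for Ahsg, with an SD of 0.29 on the log2 CPM scale, and next for Fetub, with 0.39. Igfbp2 followed at 0.64, Angptl4 at 0.76, Igfbp1 at 1.07, Gdf15 at 1.11 and Fgf21 at 1.28. Among genes within 0.5 log2 units of the same mean level, 99% varied less than Fgf21, 98.5% less than Gdf15, 99.6% less than Igfbp1, 98.1% less than Angptl4 and 96.3% less than Igfbp2. For Fetub this share was 75.3%, and for Ahsg, with 18 genes of like level, 38.9%. The 2 hormones and Igfbp1 therefore had the widest spread within groups, and the fetuins the narrowest.

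**Figure D1:**
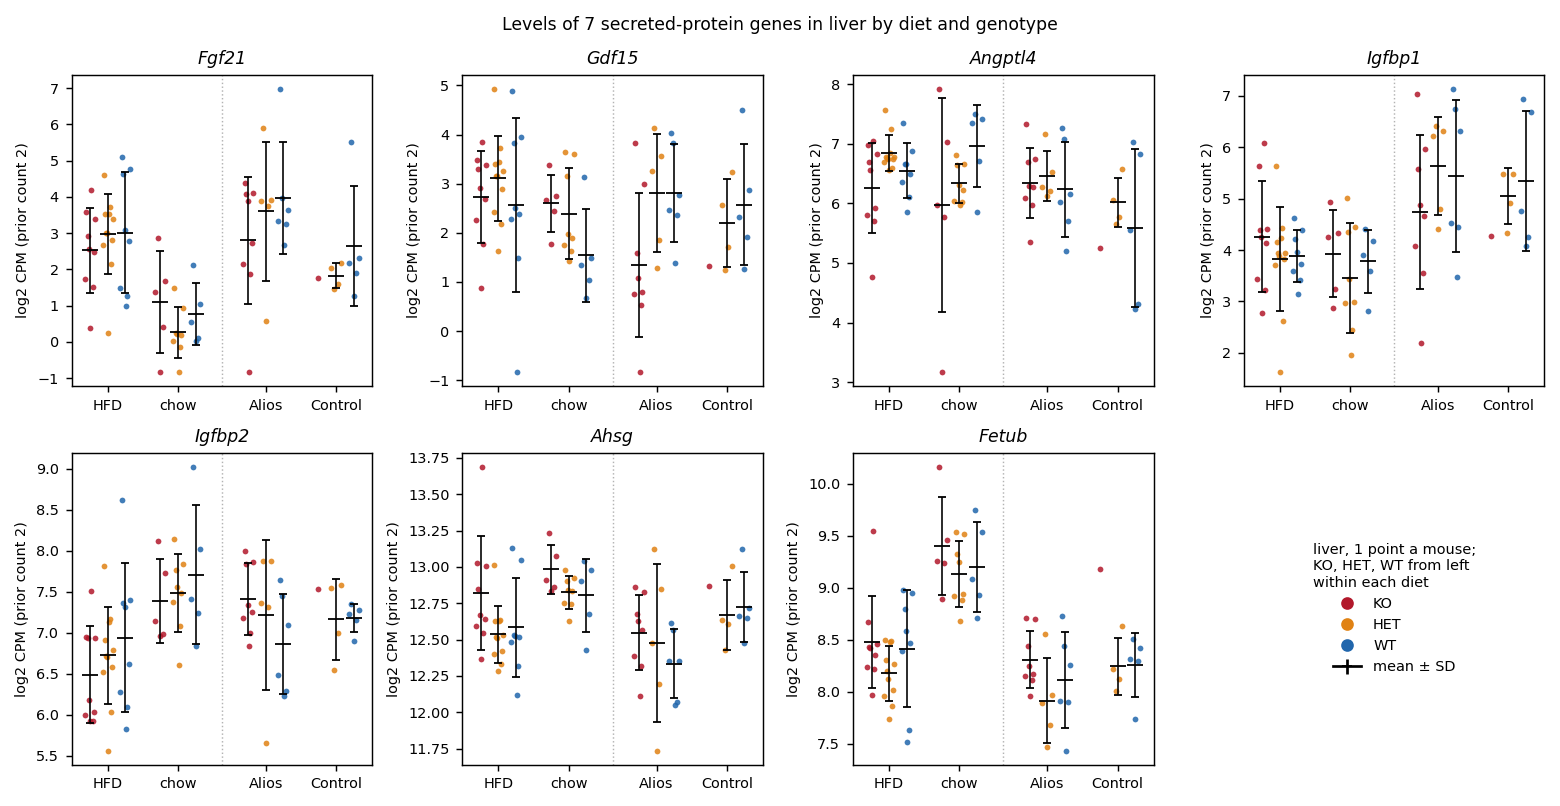
Level of each gene in every liver library as log2 CPM (prior count 2) by diet, with KO, HET and WT from left to right and bars for mean ± SD (the Control KO group has 1 mouse). Mean Fgf21 is lowest in the chow groups, with wide overlap between groups. Fetub is highest on chow and in the 1 Control KO mouse, and the other 5 genes overlap widely between groups.

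All calls among these genes were between HFD and chow. On HFD, Fgf21 rose 12-fold over chow in HET livers and 9.26-fold in WT livers. Fetub fell 1.95-fold in HET and 1.93-fold in KO livers. In all, 4 of 21 tests of HFD against chow were called at an adjusted p under 0.05 by edgeR's quasi-likelihood test with Benjamini-Hochberg adjustment over 11064 genes. In KO, 1 of the 7 genes was called (Fetub), among 10.7% of all genes (4.51% higher, 6.19% lower). In HET, 2 were called (Fgf21 and Fetub), among 14.2% of all genes (6.97% higher, 7.26% lower). In WT, 1 was called (Fgf21), among 1.87% of all genes (1.21% higher, 0.66% lower). These 2 genes were named as called after their values were seen.

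Fgf21 on HFD ran from 0.737 to 17.8 CPM in 9 KO livers, with a median of 5.34, and in 5 chow KO livers stood at 6.76, 0, 2.66, 2.02 and 0.773 CPM. In 11 HFD HET livers it ran from 0.629 to 23.6 CPM with a median of 7.49, and in 8 chow HET livers from 0 to 2.25 CPM with a median of 0.584. Among 8 HFD WT livers the lowest value was 1.43 CPM, the median 7.09 and the highest 33.8, against 0.452, 1.5, 0.906, 3.77 and 0.514 CPM on chow. In HET, every HFD liver lay above every chow liver except the mouse labelled HET, which was the lowest of its group. The WT groups overlapped in 3 HFD mice, at 1.43, 1.85 and 2.26 CPM, and the KO groups overlapped over most of their range. Chow levels rest on 0 to 18 reads per library, and a count of 0 allows up to 1.43 CPM in chow KO mouse 2 and 1.25 CPM in chow HET mouse 4, counting error only.

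The log2 fold change of Fgf21 on HFD was 3.58 ± 0.66 in HET (SE, edgeR adjusted p = 0.00024), 3.21 ± 0.78 in WT (edgeR adjusted p = 0.021) and 1.36 ± 0.73 in KO (edgeR adjusted p = 0.22). The 95% interval in KO, -0.08 to 2.80, overlaps that in WT, 1.68 to 4.74. The difference of the KO effects on the 2 diets, which is also the difference of the diet effects in KO and WT, was -1.85 ± 1.15 (edgeR adjusted p = 0.39), so the smaller estimate in KO is not shown to differ from that in WT. Among all genes, 0.145% were called for this difference, and 0 of the 7 by edgeR, 0 by DESeq2 and 0 at an unadjusted p under 0.05. Without the mouse labelled HET the HET value was 3.68 (edgeR adjusted p = 0.00013). The HET call held among mice numbered below 450 (log2 3.31, edgeR adjusted p = 0.017) and among those numbered above 540 (log2 3.80, edgeR adjusted p = 0.042), the 2 runs of mouse numbers on these diets. The WT call did not hold in either run (log2 2.19 and 4.59, edgeR adjusted p = 0.55 and 0.16). It was also lost without chow WT mouse 1, 3 or 5 or HFD WT mouse 4 (edgeR adjusted p = 0.086, 0.067, 0.058 and 0.053), in a fit of the WT groups alone (edgeR adjusted p = 0.093) and in one of all 12 groups (edgeR adjusted p = 0.057). In KO the runs gave 0.03 and 4.95. The only chow KO mice in the run above 540, mice 2 and 5, were both high in acute-phase genes. Without the 4 livers high in acute-phase genes the KO value was 0.73 (edgeR adjusted p = 0.91, 2 chow mice left).

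Fgf21 was also higher on Alios than on Control in estimate, but no call was made. It stood at 12.8, 0.931, 59.2, 14.4 and 14.2 CPM in Alios HET livers, against 2.48, 2.18, 3.57 and 3.98 CPM in Control HET livers. The range was 5.76 to 126 CPM, with a median of 10.7, in 6 Alios WT livers, and Control WT livers had 3.96, 4.44, 44.8, 1.85 and 3.2 CPM. All Alios HET livers but 1 lay above all Control HET livers, and all Alios WT livers lay above all Control WT livers but 1. The log2 fold change was 2.84 ± 1.11 in HET (edgeR adjusted p = 0.26) and 1.28 ± 0.78 in WT (edgeR adjusted p = 0.67). The WT direction turned to -0.23 without Alios WT mouse 5, the highest, and the value was 3.19 without Control WT mouse 3 (edgeR adjusted p = 0.97 and 0.13). In the WT comparison 0% of 11595 genes were called and in the HET comparison 0.19%, and over both genotypes 0 of 14 tests of the 7 genes passed by edgeR, 0 by DESeq2, and 2 had an unadjusted p under 0.05 (this one in HET, 0.016, and Ahsg in WT, 0.045). No test was made in KO, with 1 Control liver at 2.83 CPM and 8 Alios livers from 0 to 20.5 CPM (the 0 in mouse 8, where it allows up to 62 CPM).

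The high Control WT liver was mouse 3, which also had the highest summed pancreas acinar markers of all livers, at 181 CPM. Pancreas acinar tissue makes Fgf21. Chow KO mouse 4, with 66.5 CPM of those markers, had Fgf21 at 2.02 CPM, and HFD KO mouse 3, with 44 CPM, at 2.74 CPM. The same Control WT mouse had the highest Gdf15 (22.0 CPM), Igfbp1 (122 CPM) and Ahsg (8924 CPM) of its group and the lowest Angptl4 (18.2 CPM) and Fetub (212 CPM), and the part of pancreas RNA in these levels was not tested.

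Gdf15 did not pass the test in any comparison. It had a range of 1.29 to 13.8 CPM in HFD KO livers (median 6.95) and was at 4.88, 2.87, 5.76, 9.82 and 6.18 CPM in chow KO livers. HFD HET livers ran from 2.51 to 30.0 CPM (median 8.38) and chow HET livers from 2.12 to 12.0 CPM (median 3.27). HFD WT livers ran from 0 to 29.1 CPM (median 4.91), and chow WT livers had 2.26, 2.0, 1.51, 8.23 and 1.03 CPM. The groups overlapped in all 3 genotypes. The log2 fold change on HFD was 1.62 ± 0.65 in WT (edgeR adjusted p = 0.2), 0.91 ± 0.46 in HET (edgeR adjusted p = 0.18) and 0.24 ± 0.59 in KO (edgeR adjusted p = 0.84). In Alios KO livers Gdf15 lay between 0.888 and 13.6 CPM in mice 1 to 7, and was at 0 in mouse 8, where a count of 0 allows up to 62.0 CPM. There the log2 fold change to WT was -0.92 ± 0.63 (edgeR adjusted p = 0.53) and that to HET -1.16 ± 0.63 (edgeR adjusted p = 0.42).

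Angptl4 ran from 26.6 to 132 CPM in HFD KO livers (median 94.0), while chow KO livers had 130, 62.1, 8.42, 242 and 54.1 CPM. In HFD HET livers the range was 93.2 to 189 CPM (median 108), and 62.0 to 112 CPM (median 76.5) in chow HET livers. HFD WT livers ran from 57.2 to 162 CPM (median 95.1), and chow WT livers were at 170, 163, 104, 179 and 57.6 CPM. Chow KO livers held both the lowest and the highest value of all 75 libraries. The low one, mouse 3, was among the mice high in acute-phase genes, as were mice 2 and 5, and the mice at 130 and 242 CPM were not. KO against WT on chow gave -0.40 ± 0.40 (edgeR adjusted p = 0.61), and 0.47 (edgeR adjusted p = 1.0) without those 3 mice, which left 2 chow KO mice. HFD against chow gave 0.51 ± 0.29 in HET (edgeR adjusted p = 0.25), -0.46 ± 0.35 in WT and -0.28 ± 0.35 in KO (edgeR adjusted p = 0.55 and 0.63). When the HET groups were fitted alone, Angptl4 was called on HFD (log2 0.51, edgeR adjusted p = 0.013).

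Igfbp1 ranged widely within most groups, from 2.51 to 49.0 CPM among HFD HET livers and from 3.99 to 130 CPM among Alios KO livers, and was called in no comparison. Its median was 18.4 CPM in HFD KO, 14.7 in HFD HET and 13.8 in HFD WT livers, against 18.6, 8.86 and 14.4 CPM in chow KO, HET and WT livers. On Alios the medians were 26.7 CPM in KO, 73.5 in HET and 50.8 in WT livers, against 18.8 CPM in the 1 Control KO liver, 36.8 in Control HET and 26.6 in Control WT livers. The mean over the Alios HET group, 57.1 CPM, had an SD of 30.6. The widest estimates by diet were 0.64 ± 0.76 for Alios against Control in HET (edgeR adjusted p = 0.81) and 0.54 ± 0.51 for HFD against chow in KO (edgeR adjusted p = 0.51).

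Igfbp2 had lower estimates on HFD than on chow in all 3 genotypes, none of which passed the test. It ran from 60.2 to 181 CPM in HFD KO livers (median 72.0), against 278, 126, 140, 212 and 124 CPM in chow KO livers. In HFD HET livers it ran from 46.7 to 224 CPM (median 105), against 96.6 to 283 CPM in chow HET livers (median 184). HFD WT livers ran from 56.3 to 391.1 CPM (median 128), and chow WT livers were at 169, 151, 518.9, 258 and 114 CPM. In KO, 8 of the 9 HFD livers lay below all chow livers, and in HET and WT the groups overlapped more. The log2 fold change was -0.89 ± 0.35 in KO (edgeR adjusted p = 0.09), -0.71 ± 0.30 in HET (edgeR adjusted p = 0.099) and -0.74 ± 0.36 in WT (edgeR adjusted p = 0.32). It was called in KO without HFD KO mouse 8 (edgeR adjusted p = 0.045) and in HET without HFD HET mouse 3 (edgeR adjusted p = 0.038), the highest mouse of each HFD group. Igfbp2 was also called when the HET groups were fitted alone (edgeR adjusted p = 0.027). Without chow WT mouse 3, the highest of its group, the WT value was -0.25 (edgeR adjusted p = 0.82).

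Fetub was at 250 to 749 CPM in HFD KO livers (median 341.1) and at 609, 604, 701, 475 and 1143 CPM in chow KO livers. It was at 213 to 360.6 CPM in HFD HET livers (median 293) and at 411 to 742 CPM in chow HET livers (median 549). Among HFD WT livers it was at 182 to 503.2 CPM (median 370), and chow WT livers had 859, 486.6, 541, 742 and 418 CPM. All 11 HFD HET livers lay below all 8 chow HET livers. In KO, all HFD livers but mouse 2 lay below all chow livers, and in WT the ranges overlapped. The log2 fold change was -0.96 ± 0.19 in HET (edgeR adjusted p = 0.00043), -0.95 ± 0.22 in KO (edgeR adjusted p = 0.0048) and -0.75 ± 0.23 in WT (edgeR adjusted p = 0.066). DESeq2 called the WT value too (log2 -0.75, adjusted p = 0.049).

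The HET call of Fetub held without each of the 19 mice in turn. Among mice numbered below 450 its value was -1.03 (edgeR adjusted p = 0.0042) and among those above 540 it was -0.83 (edgeR adjusted p = 0.16). The KO call was lost without chow KO mouse 5, the highest (log2 -0.69, edgeR adjusted p = 0.071), and held without each other mouse in turn. Without chow KO mice 2, 3 and 5, which were high in acute-phase genes, it was -0.54 (edgeR adjusted p = 0.68, 2 chow mice left), and without those and HFD KO mouse 2 it was -0.73 (edgeR adjusted p = 0.39). By run of mouse numbers the KO value was -0.47 (edgeR adjusted p = 0.51) below 450 and -1.57 (edgeR adjusted p = 0.0044) above 540. The only chow KO mice above 540 were mice 2 and 5, both high in acute-phase genes. Run and acute-phase state cannot be told apart in that value. In KO over both runs, 8 of 18 acute-phase genes fell on HFD, and 7 of 8 macrophage markers fell and 0 rose (median log2 fold change -1.16). Summed macrophage markers ran from 483 to 848 CPM in HFD KO livers against 478 to 2110 CPM in chow KO livers, with no marker at 0 throughout either group. Summed hepatocyte markers had a median of 119000 CPM in HFD KO livers and 79000 CPM in chow KO livers, and of the 8 only Alb was called (higher on HFD). The part of these marker differences in the Fetub difference was not tested.

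Across the 12 groups, mean Fetub fell into an upper set on chow, from 9.13 to 9.40 log2 CPM, and a lower set on the other diets, from 7.91 to 8.48. The single Control KO liver, at 9.18, stood with the chow groups. The gap of 0.65 between chow HET and HFD KO livers was the only one between neighbouring group means, for any of the 7 genes, that exceeded the SD of both groups. The Control livers of HET and WT mice (257 to 397 and 212 to 364 CPM) stood at the Alios level (177 to 375 CPM in HET, 173 to 424 CPM in WT), with log2 fold changes of -0.31 ± 0.22 in HET and -0.10 ± 0.20 in WT (edgeR adjusted p = 0.6 and 0.95). Mice on chow and on Control also differ in their run of mouse numbers, so diet and run cannot be told apart between them.

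Between HFD and chow the estimates for Ahsg were smaller than those for its neighbour. It ran from 5276 to 13180 CPM in HFD KO livers (median 6502), and chow KO livers had 7440, 7318, 9644, 7707 and 8636 CPM. HFD HET livers ran from 4977 to 8260 CPM (median 5871), against 6340 to 8078 CPM (median 7324) in chow HET livers. HFD WT livers ran from 4439 to 8976 CPM (median 5870), and chow WT livers had 8057, 5517, 8413, 7649 and 6535 CPM. The ranges overlapped in each genotype. The log2 fold change on HFD was -0.28 ± 0.13 in HET (edgeR adjusted p = 0.16), -0.20 ± 0.16 in WT (edgeR adjusted p = 0.59) and -0.15 ± 0.16 in KO (edgeR adjusted p = 0.57). In a fit of the HET groups alone it was called (log2 -0.28, edgeR adjusted p = 0.04). Between Alios and Control in WT the order was the other way, with -0.39 ± 0.19 for Ahsg (edgeR adjusted p = 0.59) and -0.10 ± 0.20 for Fetub.

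The ratio of Fetub to Ahsg counts within a library needs no scaling between libraries, and was chosen after the fold changes of both genes were seen. Fetub counts were a median of 4.96% of Ahsg counts in HFD KO livers against 8.19% in chow KO livers, 4.7% in HFD HET against 7.41% in chow HET livers, and 5.92% in HFD WT against 8.82% in chow WT livers. The mean log2 ratio was -4.34 ± 0.20 (SD, n = 9) in HFD KO and -3.59 ± 0.41 (n = 5) in chow KO livers, with no overlap between them, by an exact permutation test (two-sided p = 5e-04, 0.0012 adjusted over 5 such tests). In HET it was -4.36 ± 0.17 on HFD (n = 11) and -3.70 ± 0.35 on chow (n = 8), with an exact permutation p of 5.3e-05 (0.00026 adjusted). In WT it was -4.17 ± 0.41 on HFD (n = 8) and -3.605 ± 0.34 on chow (n = 5), with an exact permutation p of 0.026 (0.043 adjusted). Without the 4 KO livers high in acute-phase genes the KO difference was -0.55, against -0.76 with them. Its exact permutation p of 0.022 is the smallest that 8 against 2 mice allow. The WT difference of -0.57 came to -0.47, -0.54 and -0.51 without chow WT mouse 1, 2 or 4 (exact permutation p = 0.073, 0.059 and 0.069). Among mice below 450 the KO difference was -0.40 (exact permutation p = 0.018, the smallest that 5 against 3 mice allow). Among mice above 540 the difference was -0.36 in WT (exact permutation p = 0.53) and -1.26 in KO (exact permutation p = 0.067, the smallest that 4 against 2 mice allow). Both of those chow KO mice were high in acute-phase genes. Alios against Control differed by -0.14 in HET and 0.25 in WT (exact permutation p = 0.64 and 0.43).

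**Figure D2:**
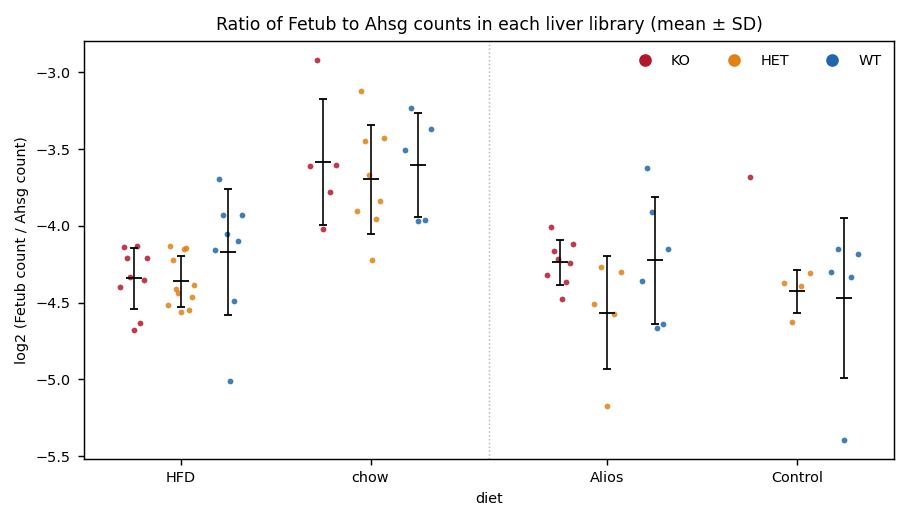
Each point is the log2 ratio of Fetub to Ahsg counts in 1 liver library, by diet, with KO, HET and WT from left to right and bars for mean ± SD. HFD KO livers lie between -4.68 and -4.13, below the chow KO livers at -4.02 to -2.92, while Alios and Control overlap in HET and WT.

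Other genes of the fetuin cluster moved less. Downstream of Fetub lie Hrg, Kng2 and Kng1, which encode histidine-rich glycoprotein and kininogens and share the cystatin fold with the fetuins, all within 190802 bases from Ahsg to Kng1. Kng1 averaged 1640 ± 136 CPM in HFD HET and 2380 ± 405 CPM in chow HET livers (SD, n = 11 and 8), and fell by 0.54 ± 0.13 on the log2 scale (edgeR adjusted p = 0.0036). In KO it ran from 1350 to 2820 CPM on HFD and from 1910 to 3040 CPM on chow (n = 9 and 5), and fell by 0.49 ± 0.15 (edgeR adjusted p = 0.035). In WT its log2 fold change was -0.32 ± 0.16 (edgeR adjusted p = 0.33). Hrg had -0.35 ± 0.15, -0.35 ± 0.17 and -0.31 ± 0.18 in HET, KO and WT, none of which was called (edgeR adjusted p = 0.1, 0.18 and 0.4). Kng1 and Kng2 are near-identical copies whose reads the counting could split, so their levels are uncertain.

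Genotype did not give a call for any of the 7 genes. In 10 comparisons of KO or HET with another genotype, 0 of 70 tests passed by edgeR (lowest adjusted p = 0.18), 0 by DESeq2, and 3 had an unadjusted p under 0.05. Of all genes, KO against WT called 1.72% on HFD, 3.4% on chow and 0.224% on Alios, KO against HET 2.39% on HFD, 13.5% on chow and 0.285% on Alios, and HET against WT 0.00904% on HFD, 0% on chow, 0.00862% on Alios and 0.00862% on Control. The 3 with a low unadjusted p were Ahsg in KO against HET on HFD (log2 0.33 ± 0.13, unadjusted p = 0.015), Fetub in KO against HET on Alios (0.41 ± 0.19, unadjusted p = 0.041) and Angptl4 in HET against WT on chow (-0.72 ± 0.35, unadjusted p = 0.045). The Ahsg value came to 0.18 (edgeR adjusted p = 0.48) without the KO mice high in acute-phase genes. Intervals show what this size of study leaves possible: for KO against WT on HFD the 95% interval of the log2 fold change was -0.02 to 0.53 for Ahsg and -0.34 to 0.43 for Fetub, but -1.85 to 0.03 for Fgf21 and -1.30 to 0.52 for Gdf15. On Alios that for Fgf21 was -2.76 to 0.03, around an estimate of -1.37 that turned to 0.15 without Alios WT mouse 5. The Gdf15 estimate on HFD, -0.39, turned to 0.12 without HFD WT mouse 8.

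**Figure D3:**
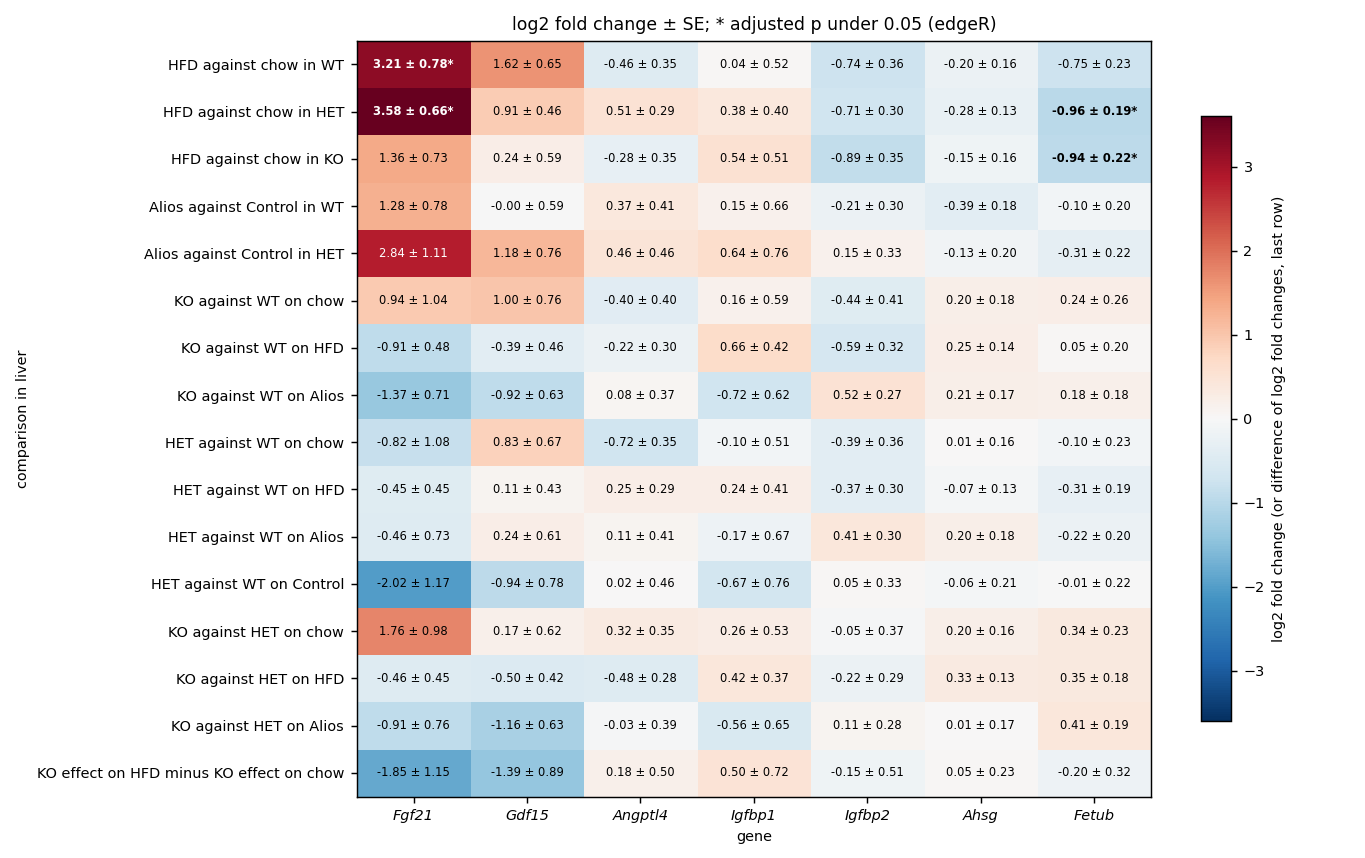
Log2 fold change ± SE of each gene in 16 comparisons (red higher, blue lower in the first-named group), with a star where the edgeR adjusted p is under 0.05. The 4 starred values are Fgf21 on HFD in WT and HET and Fetub on HFD in HET and KO.

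Within groups, Fgf21 and Gdf15 went up and down together from mouse to mouse. After subtraction of each group mean, over 73 libraries of at least 1000000 counts, log2 CPM of the 2 hormones had a Pearson r of 0.65 and a Spearman rho of 0.65, and r was 0.63 without the 2 libraries farthest from the median of Fgf21. Both are low-count genes of the same libraries, so they share depth and scaling. Gdf15 also went with Igfbp1 (r = 0.44, rho = 0.41). Ahsg went with Fetub (r = 0.59, rho = 0.52) and with Igfbp2 (r = 0.52, rho = 0.50), and Fgf21 ran against Fetub (r = -0.42, rho = -0.45). Angptl4 had its highest r with Fetub (r = 0.14, rho = 0.225) and its lowest with Fgf21 (r = -0.157, rho = -0.12). These are descriptions over the libraries of all 12 groups, and 21 pairs were computed.

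**Figure D4:**
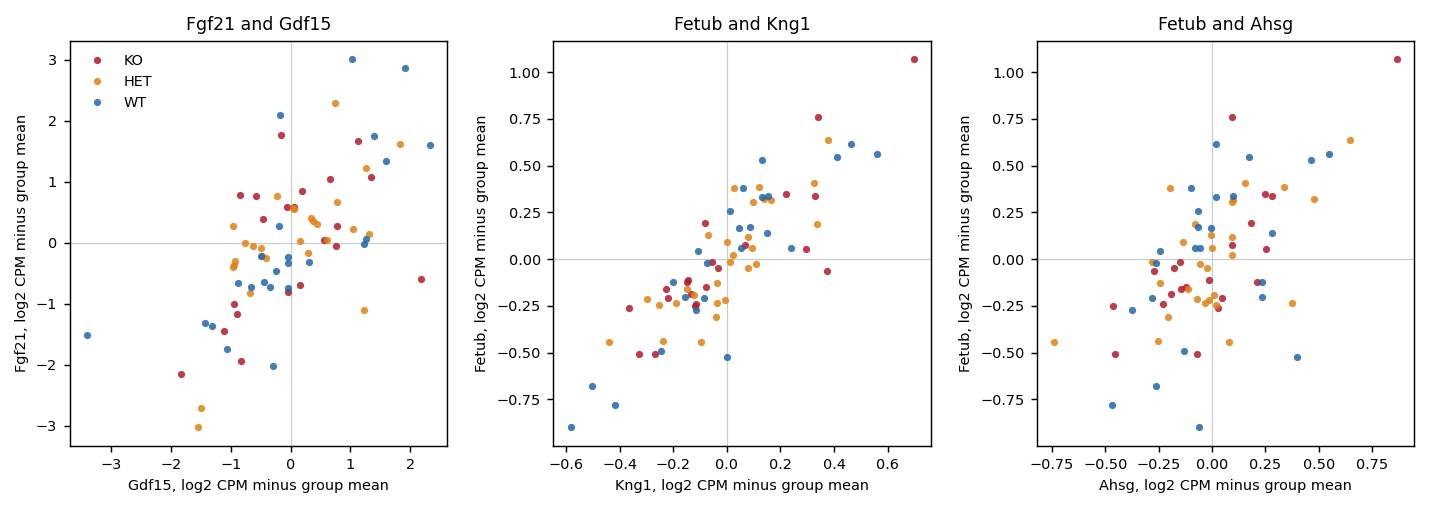
Each point is 1 of 73 liver libraries, with log2 CPM minus its group mean on both axes: Fgf21 against Gdf15, Fetub against Kng1 and Fetub against Ahsg. The points follow a rising band that is tightest for Fetub and Kng1 (rho 0.85), with rho 0.65 for Fgf21 and Gdf15 and 0.52 for Fetub and Ahsg.

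Among 11415 genes, those most like each of the 7 by Spearman rho were as follows. Fgf21 went with Sqstm1, an autophagy receptor (rho 0.66), then Gdf15 itself and Spon2, a matrix protein (0.61). Gdf15 went with Plpp5, a lipid phosphatase (0.74), Tmem43 (0.70) and the annexin Anxa5 (0.70). Angptl4 went with the sialyltransferase St3gal5 (0.74), Eci2, an enzyme of fatty acid oxidation (0.69), and the carnitine transporter Slc22a5 (0.67). Igfbp1 went with the antiproliferative gene Btg2 (0.71), Rnf144a (0.58) and Adcy1 (0.56). Igfbp2 went with Cyp2u1 (0.64), Gcat (0.64) and Trmt1 (0.63). Ahsg went with other plasma protein genes, Serpinf2 (0.82) and Serpina1e (0.80), and with Enho (0.79), and Fetub with its neighbours Kng1 (0.85) and Hrg (0.84) and with Igfbp4 (0.79). Serpina1e has close copies, which makes its level uncertain.

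Gene lists around the 7 genes gave medians of rho that can be read against a median near 0 over all genes. The 18 measured genes of the ATF4 and integrated stress response list had a median rho of 0.35 with Gdf15, 0.32 with Fgf21 and 0.28 with Igfbp1. Its highest member for both hormones was Nupr1 (0.66 with Gdf15 and 0.60 with Fgf21), and its lowest was Asns with Gdf15 (-0.068) and Chac1 with Fgf21 (0.038). With Igfbp1 the list ran from 0.072 (Trib3) to 0.488 (Atf3). The 23 PPAR alpha targets had a median of 0.43 with Angptl4, 0.13 with Fgf21 and -0.36 with Ahsg. For Igfbp1, the 15 FOXO1 and insulin responsive genes had a median of -0.015 (from -0.341 to 0.336). ChREBP targets, genes of the carbohydrate response, had a median of -0.57 with Ahsg and -0.37 with Fetub. Mlxipl, which encodes ChREBP itself, is on that list and had the highest rho of the list with both (0.215 and 0.462). The 8 stellate cell markers had a median of -0.47 with Fetub, and of 0.25 with Fgf21, 0.24 with Gdf15 and 0.25 with Igfbp1, not far below those of the ATF4 list, and macrophage markers had 0.27 with Igfbp1. Fetub also had a median of 0.35 with the 18 genes raised in the acute phase (from 0.023 to 0.758). With 6 genes lowered in the acute phase it had 0.32 (from -0.006 to 0.526), and with the 8 hepatocyte markers 0.375.

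**Figure D5:**
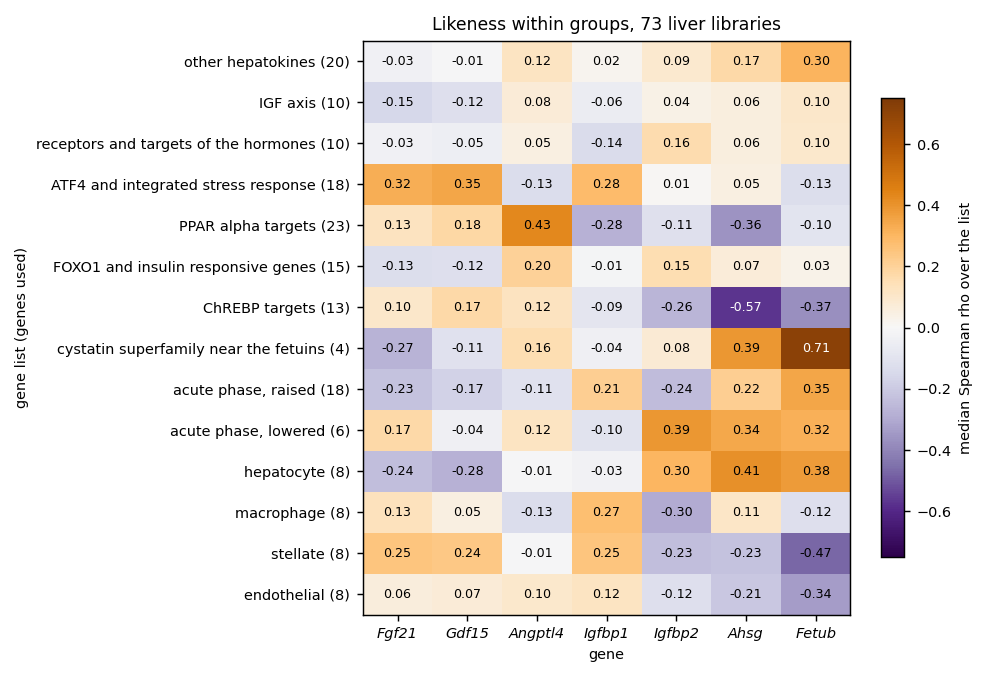
Median Spearman rho between each of the 7 genes and the genes of each list over 73 liver libraries, with group means subtracted. Fgf21, Gdf15 and Igfbp1 share positive medians with the ATF4 list (0.32, 0.35 and 0.28), Angptl4 with PPAR alpha targets (0.43), and Ahsg has its lowest with ChREBP targets (-0.57).

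The same lists were counted for HFD against chow, to be read against 10.7% of all genes called in KO, 14.2% in HET and 1.87% in WT. Of 23 PPAR alpha targets, 11 rose and 0 fell in KO, 9 and 0 in HET, and 2 and 0 in WT, with median log2 fold changes of 0.58, 0.37 and 0.22 against -0.02, -0.01 and 0.00 over all genes. They included the fatty acid transfer gene Cpt1a (1.95-fold higher in HET, edgeR adjusted p = 1.6e-06) and the lipid droplet gene Plin2 (2.38-fold higher in HET, edgeR adjusted p = 4.2e-06). Angptl4, a target of the same receptor, was not among those called. In KO against WT on chow, 0 of the 23 targets were higher and 9 lower (median log2 fold change -0.775), among 3.4% of all genes called. On HFD 0 were higher and 2 lower, among 1.72%. The rise in KO is thus read against a chow level below that of WT, in a group where mice 2, 3 and 5 were high in acute-phase genes. The part of that state in the rise was not tested. Of 17 tested ATF4 and stress response genes, 1 rose and 1 fell in KO, 4 rose and 2 fell in HET, and none was called in WT (edgeR), and the 3 with the lowest adjusted p in HET were Atf4 itself (1.5-fold lower), the asparagine synthetase gene Asns (10.9-fold lower) and the lipoprotein receptor gene Vldlr (2.55-fold higher). Of the 10 tested receptors and targets of the hormones, 1 rose and 2 fell in KO, and 1 rose and 1 fell in HET, the HET count being near the share over all genes. Fgfr1, a receptor for Fgf21, was 3.27-fold lower in KO (edgeR adjusted p = 0.00038) and 3.24-fold lower in HET (edgeR adjusted p = 1e-05), and had -0.82 ± 0.32 in WT (edgeR adjusted p = 0.18). Fgfr4 was 1.48-fold lower in KO (edgeR adjusted p = 0.017), while Klb had 0.43 ± 0.21 in KO, -0.09 ± 0.16 in HET and -0.11 ± 0.21 in WT (edgeR adjusted p = 0.17, 0.77 and 0.86). Of 10 tested genes of the IGF axis, 1 rose and 2 fell in HET, and 1 rose in WT. In HET, Igf1 was 1.33-fold lower (edgeR adjusted p = 0.019) and Igfals, which carries it in plasma, 1.43-fold lower (edgeR adjusted p = 0.05), and Igfbp7 was higher in HET and WT (1.27-fold and 1.44-fold, edgeR adjusted p = 0.038 and 0.046). Of 20 other hepatokines tested, 1 rose and 2 fell in KO, and 3 rose and 2 fell in HET, and Selenop was 1.55-fold higher in KO and Inhbe 1.93-fold higher in HET (edgeR adjusted p = 0.012 and 0.0028). Of 15 FOXO1 and insulin responsive genes, a list that does not itself hold Igfbp1, 1 rose and 0 fell in KO, and 2 rose and 1 fell in HET (edgeR). These FOXO1 counts lie near the shares over all genes. Of 13 genes of the ChREBP list, 2 rose and 1 fell in KO (median log2 fold change 0.56), 0 rose and 4 fell in HET (median -0.57), and 1 fell in WT (median -0.05). The list includes Mlxipl, which encodes ChREBP itself. Mlxipl was the 1 gene that fell in KO and in WT, and was among the 4 in HET. Stellate cell markers rose in the same contrast, 2 of 8 in KO, 6 in HET, where 1 fell, and 3 in WT. Their summed level ran from 353 to 479 CPM in HFD KO livers against 222 to 373 CPM in chow KO livers, and from 396 to 679 CPM in HFD HET livers against 275 to 473 CPM in chow HET livers. In HFD WT livers its median was 455 CPM, against 347 CPM in chow WT livers, and none of these markers was at 0 throughout a group. Endothelial markers also rose, 3 of 8 in KO and 4 in HET, with summed levels of 290 to 363 CPM in HFD KO livers against 251 to 344 CPM in chow KO livers and of up to 433 CPM in HFD HET livers (median 381) against 253 to 343 CPM in chow HET livers. Of 8 hepatocyte markers 1 rose in KO and 3 fell in HET. Of 7 tested skeletal muscle markers 4 fell in HET, where their sum reached 860 CPM in 1 HFD liver and 1650 CPM in 1 chow liver, with medians of 0.821 CPM in HFD HET and 1.55 CPM in chow HET livers. The part of these cell types in the Fetub and Fgf21 differences was not tested.

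Gonadal adipose tissue of 44 of the same mice, on HFD and chow, was used for levels alone, since its table was scaled separately. Angptl4 was higher in adipose tissue than in liver in all 44 mice, with a median of 889 CPM in adipose tissue and 100 CPM in liver. Ahsg had a median of 11.5 CPM in adipose tissue and 6440 CPM in liver, and Fetub 2.33 CPM in adipose tissue and 372 CPM in liver. Igfbp2 had a median of 6.6 CPM in adipose tissue and 123 CPM in liver, and Igfbp1 0 CPM in adipose tissue and 14.9 CPM in liver. The median of Fgf21 was 0.996 CPM in adipose tissue and 2.7 CPM in liver, and that of Gdf15 2.71 CPM in adipose tissue and 5.82 CPM in liver. Fgf21 was higher in adipose tissue than in liver in 9 of the 44 mice, Gdf15 in 9 and Igfbp2 in 1. Ahsg reached 2750 CPM and Fetub 161 CPM in adipose tissue, though neither was higher there than in liver in any mouse.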

How the data were processed

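RNA was extracted from liver with a column kit, checked for integrity and made into stranded mRNA libraries, per the labels' protocols. The submitters' processing notes name STAR 2.5.1b, featureCounts 1.5 and GRCm38.p5. Which settings, strand option and annotation release the authors used is not given in the sources used here. What the authors deposited are raw counts of reads per Ensembl gene, seen as whole numbers with unequal totals. Symbols came from a GRCm38 annotation (25723 of 25759 matched), and 1 adipose column without a label was not used.

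Groups were taken from the labels. Counts were tested in R 4.3.3 with edgeR 4.0.16 (expression filter with minimum count 10 and minimum total 15, TMM scaling, two-sided quasi-likelihood test, Benjamini-Hochberg over all genes of a comparison, called at an adjusted p under 0.05). One fit covered chow and HFD (46 libraries, 11064 genes) and another Control and Alios (29 libraries, 11595 genes). The SE is the log2 fold change divided by the square root of F, and intervals are 95%. Over 16 comparisons, 112 tests of the 7 genes were made. The lone Control KO library entered the fit but no comparison. Among 229 pairs of libraries of the same group, observed spread was at least 3.36 times sampling spread, so none was counted as a duplicate. Each library is 1 mouse, so the tests read a difference against the spread from mouse to mouse. The test was checked on simulated counts that gave every gene the same relative spread between mice. That check does not cover genes that vary as widely as Fgf21 and Gdf15.

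The 7 genes and the gene lists were chosen with earlier results of these data known. Other genes named are Pepd, up to 3 called genes per list and comparison with the lowest adjusted p, and the 3 genes most like each of the 7 by Spearman rho of group-centred log2 CPM (prior count 2, genes of at least 1 CPM). Klb, Hrg and Kng2 were named after their values were seen. The Fetub to Ahsg ratio was tested by exact permutation of libraries. Alternatives were DESeq2 1.42.0, RLE scaling, other filters, other fits, a replicate block, the run of mouse numbers and leaving out each library. Fits within a run and without the livers high in acute-phase genes were chosen after seeing the data. Precision follows from the total counts, 42692 to 8854246 per library, and limits for a count of 0 use 3 counts.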

Additional observations from a re-analysis of the deposited data

Results flagged for a closer look

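Of 70 groups of 4 to 10 mice, 6 held a mouse set apart from the others of its group by more than a Dixon test at the 95% level allows, and chance alone sets apart about 1 in 20. HFD KO mouse 2 had Ahsg at 13180 CPM (next 8351 CPM) and Fetub at 748.8 CPM (next 407 CPM), and its summed acute-phase genes stood at 122000 CPM, against 25400 to 34500 CPM in the other HFD KO mice. Control WT mouse 3 had Fgf21 at 44.77 CPM (next 4.437 CPM) and Fetub at 212.5 CPM (next 314.1 CPM), beside 181 CPM of pancreas acinar markers. Alios WT mouse 5 had Fgf21 at 125.9 CPM (next 14.97 CPM), the highest of all 75 livers. Alios HET mouse 4 had Igfbp2 at 49.95 CPM (next 158.8 CPM). What set these mice apart was not tested.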

How the results depend on the processing

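No called value changed sign under any alternative run. The sign differed in 101 of 1624 values refitted without a library and in 62 of 1222 other refitted values, and these were called in neither fit. In HET, the 2 calls on HFD against chow came to 1 among mice numbered above 540 and to 5 in a fit of these groups alone. In KO, the 1 call came to 0 among mice below 450, to 0 without the chow mice high in acute-phase genes and to 0 without those of both diets, and ranged from 0 to 2 with single mice left out. In WT, the 1 call came to 0 at an adjusted p under 0.01, in either run, in a fit of these groups alone and with the replicate block, and to 2 by DESeq2, and ranged from 0 to 2 with single mice left out. In a fit of all 12 groups Fgf21 in WT had an edgeR adjusted p = 0.057 and Fetub 0.044. The log2 ratio of Fetub to Ahsg ranged with single mice left out from -0.87 to -0.59 in KO, -0.74 to -0.58 in HET and -0.66 to -0.45 in WT, and was -0.40 in KO among mice below 450, and -1.26 in KO and -0.36 in WT among those above 540. The chow KO mice above 540 were both high in acute-phase genes. The causes were not tested. Mice with the same replicate number did not deviate together (mean correlation 0.002 on chow and HFD, over 0.1 in 26 of 94 pairs), so the numbers do not pair them. With the replicate block Fgf21 in WT had a log2 fold change of 2.87 (edgeR adjusted p = 0.09) and no other call was lost. Depth limits the hormones most, with median counts per chow group of 2 to 6 reads for Fgf21 and 5 to 17 for Gdf15.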
